A study of Mus musculus with 8 samples.

Results

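Adhesion G protein-coupled receptors are surface proteins with a long extracellular part that binds matrix or neighbouring cells and a 7-helix membrane domain that signals through G proteins. Most members cut themselves at a site in the extracellular part, and the stretch left at the membrane can then act as a tethered agonist. Several members are known from vessels: Adgrl4 is an endothelial receptor of sprouting vessels, Adgrf5 is found in endothelium and in lung epithelium, and Adgra2 acts in brain vessels as a coreceptor for Wnt7 ligands. The genes described were the rows of the count table whose symbol is Adgr followed by a subfamily letter (A, B, D, E, F, G, L or V) and a number, which gave 27 of 34536 rows. They comprised 3 genes of subfamily A, 3 of B, 1 of D, 3 of E, 5 of F, 7 of G, 4 of L and 1 of V. Subfamily C, the flamingo receptors, carries other symbols and is treated with the partner genes.

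The mRNA came from mouse cells that were isolated from embryoid bodies, aggregates of differentiating pluripotent stem cells, by fluorescence-activated sorting. The labels call 4 libraries endocardial (A, C, E and G), the cell type lining the heart, and 4 endothelial (B, D, F and H), the cell type lining vessels. No genotype, strain, stem cell line, treatment, culture day or sort marker was given in the sources used here, for either group. The labels do not say that libraries came from separate cultures, and each p-value thus reflects the spread among these libraries alone, which may be technical. The total count per library ran from 6677667 to 11369363, and 3 counts, the limit that a count of 0 allows, were worth 0.267 to 0.438 CPM, the count scaled to the effective size of the library, for counting error only.

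Both labels were checked against lists of marker genes. Nfatc1, a defining factor of endocardium, had 46.1, 44.6, 48.7 and 56.0 CPM in A, C, E and G and 12.2, 12.3, 7.82 and 13.6 CPM in B, D, F and H. It was 1 of 4 called higher among 7 endocardial markers (median log2 fold change 1.05), 3 not being called. Of 7 tested cardiomyocyte markers 0 were called by edgeR (3 at an unadjusted p below 0.05, and 1 higher each by DESeq2 and limma), with all 7 log2 fold changes above 0 (median 0.85). The libraries labelled endothelial also had less of the endothelial cadherin Cdh5, at 14.5 to 17.1 CPM against 119 to 157 CPM. The 18 pan-endothelial markers summed to 1626 to 2064 CPM in the endocardial and 474 to 931 CPM in the endothelial libraries, with none at 0 in any library. The 10 pluripotency markers summed to 300.4 to 435 against 382 to 1183 CPM, highest in library F. The 10 neural markers summed to 163 to 228 against 216 to 412 CPM, again highest in F. No marker of either list was at 0 in any library. Most of the endocardial sums came from Lin28a (287 to 419 against 277 to 444 CPM) and from Nes (109 to 189 against 137 to 171 CPM), in that order of lists. The median log2 fold change was -3.26 for the pluripotency list and -1.97 for the neural list. The 12 macrophage and leukocyte markers summed to 483 CPM in library A and 163 in B, against 24.5 to 117 in the other 6 libraries, where C1qa was at 0 in D, G and H and Fcgr1 in D. In bulk RNA, fewer cells of a type and less RNA per cell cannot be told apart.

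The bases upstream of 4 members are shown because the comparison turns on them: Adgrl4 and Adgrf5 were higher in the endocardial libraries, Adgrv1 was lower, and Adgrg3, chosen after its values were seen, did not overlap between groups. Each line is the 250 bases before a RefSeq transcription start (build GRCm38.p6), 5′ to 3′ on the gene's plus or minus strand, with capitals marking the hexamer AGGAAG or its reverse complement CTTCCT, which holds the core bound by ETS factors, a family with many regulators of endothelial genes. For Adgrf5 the first of 2 RefSeq starts is shown; the window of the second (chromosome 17, 43389216 to 43389465) does not hold the hexamer.
Adgrl4, chr3:151437632-151437881, plus strand: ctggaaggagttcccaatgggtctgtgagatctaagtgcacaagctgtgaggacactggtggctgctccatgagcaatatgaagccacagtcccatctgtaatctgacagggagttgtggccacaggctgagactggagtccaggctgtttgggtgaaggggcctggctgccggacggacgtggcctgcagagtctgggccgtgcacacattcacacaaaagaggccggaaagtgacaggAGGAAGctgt
Adgrf5, chr17:43360181-43360430, plus strand: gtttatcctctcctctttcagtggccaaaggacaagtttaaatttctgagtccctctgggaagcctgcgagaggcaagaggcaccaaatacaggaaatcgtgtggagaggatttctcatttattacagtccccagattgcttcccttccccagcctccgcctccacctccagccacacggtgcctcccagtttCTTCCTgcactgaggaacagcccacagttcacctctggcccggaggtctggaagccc
Adgrg3, chr8:95017442-95017691, plus strand: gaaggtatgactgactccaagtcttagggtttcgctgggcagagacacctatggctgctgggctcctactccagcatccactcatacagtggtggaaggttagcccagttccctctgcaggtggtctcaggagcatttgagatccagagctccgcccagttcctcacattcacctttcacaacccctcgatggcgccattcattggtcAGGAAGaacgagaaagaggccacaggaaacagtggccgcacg
Adgrv1, chr13:81633145-81633394, minus strand: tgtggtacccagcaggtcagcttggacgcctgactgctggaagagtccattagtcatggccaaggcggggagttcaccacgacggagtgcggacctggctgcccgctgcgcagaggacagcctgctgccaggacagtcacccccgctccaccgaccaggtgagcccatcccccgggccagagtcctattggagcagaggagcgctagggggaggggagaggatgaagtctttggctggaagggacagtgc
The hexamer began 10 bases before the start of Adgrl4, 57 before that of Adgrf5 (as the reverse complement) and 42 before that of Adgrg3. The full hexamer was not in the Adgrv1 window, but its inner letters GGAA were. Both strands were searched. Of 32851 upstream windows of this length, 29.5% held the hexamer. The 20 members with a window had 24 windows in all. The hexamer was in 8 of these members, each in 1 window only, and thus in 8 of the 24 windows. Among these members were Adgrl1 and Adgrl2, which were not called. A match is a description of the letters and not evidence of binding. The GATA hexamer AGATAA was in 2 of the 20 members, each in 1 window only, and in 9.99% of all windows. Neither it nor the TATA-box hexamer TATAAA nor the Sox hexamer AACAAT was in the 4 windows shown.

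The comparison asked which of these receptors differ between cells labelled endocardial and endothelial. Adgrl4 and Adgrf5 were higher in the endocardial libraries and Adgrv1 was lower, while 13 tested members were not called. In all, 16 of the 27 genes had enough counts to be tested, and edgeR's quasi-likelihood test called 2 higher and 1 lower at a Benjamini-Hochberg adjusted p below 0.05 over all 13817 genes tested. Of all tested genes 1.42% were called higher and 1.16% lower, 2.58% in either direction, and of the 16 members 18.8%, a share that rests on 3 genes. The shares of all tested genes are those against which edgeR's called counts given here for a list can be read. At an unadjusted p below 0.05 there were 6 of the 16, beside 14.6% of all tested genes, the share against which each such count given here for a list can be read. DESeq2 and limma voom each called 3 members higher and 2 lower, where DESeq2 called 2.4% of all genes higher and 3.85% lower and limma voom 2.97% and 4.09%. The members lay on both sides, 9 above 0 and 7 below, with a median log2 fold change of 0.09 beside 0.01 for all tested genes, and that median ran from -0.18 without A to 0.25 without F. Groups did not overlap for 5 of the 16, beside 9.76% of all tested genes. These were Adgrl4, Adgrf5 and Adgrg3 on the higher side (3 of 16, beside 4.42% of all tested genes) and Adgra3 and Adgrv1 on the lower side (2 of 16, beside 5.33%).

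**Figure D1:**
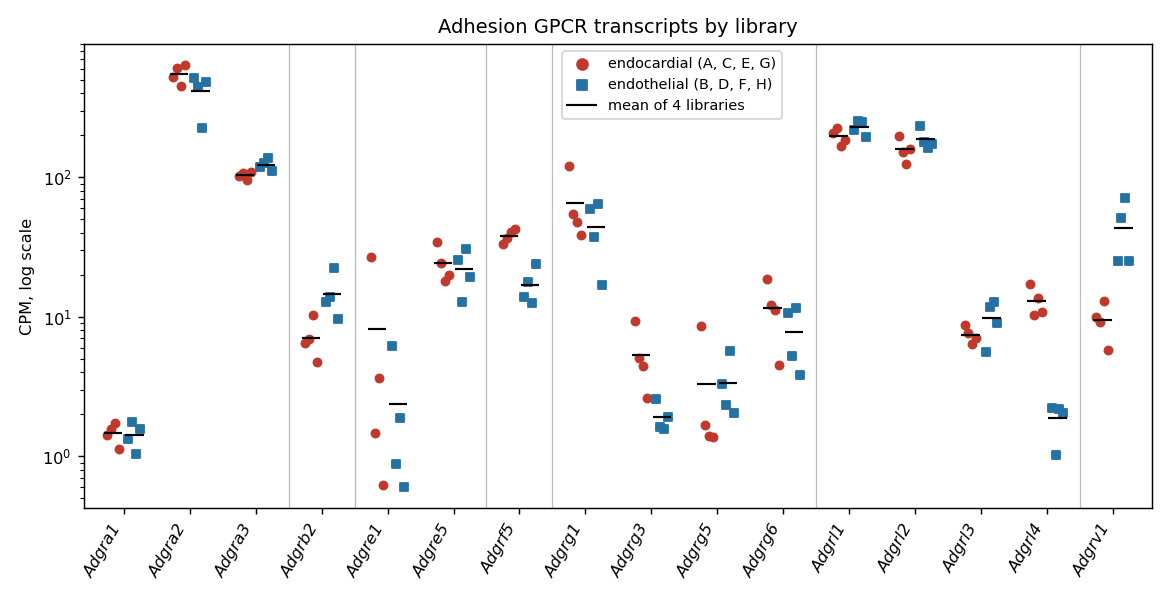
CPM (log scale) of the 16 tested adhesion receptor genes in each library, circles for the 4 endocardial and squares for the 4 endothelial libraries, with bars at the mean and vertical lines between subfamilies. Adgrl4 lies between 10.4 and 17.2 CPM in the endocardial and 1.02 and 2.23 CPM in the endothelial libraries, and Adgrv1 shows the opposite order.

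Adgrl4 (mouse build GRCm38, chromosome 3, 151437887 to 151545086, plus strand, 16 exons in its longest coding transcript) codes for the endothelial latrophilin-like receptor also known as ELTD1. It had 17.2, 10.4, 13.5 and 10.9 CPM in libraries A, C, E and G and 2.23, 1.02, 2.19 and 2.03 CPM in B, D, F and H. Every endocardial value was above every endothelial value, and D was the lowest of all with 7 counts. The mean was 13.0 ± 3.12 CPM against 1.87 ± 0.571 CPM (SD, n = 4 each), 6.80-fold higher (log2 fold change 2.77, SE 0.29, edgeR adjusted p = 0.00094). The call was made in each of 8 fits with 1 library left out (log2 fold change 2.59 to 2.87) and also with A and B both left out (2.70, edgeR adjusted p = 0.00663).

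Other latrophilins, receptors for teneurins and FLRT proteins best known from synapses, did not share this pattern. Adgrl1 had 209, 227, 167 and 185 CPM in A, C, E and G and 220.0, 252, 249.9 and 193 CPM in B, D, F and H. Its groups overlapped, with a log2 fold change of -0.22 (SE 0.13, edgeR adjusted p = 0.528). Adgrl2 ranged from 125 to 199 CPM in the endocardial and 162 to 233 CPM in the endothelial libraries (log2 fold change -0.24, SE 0.16). Adgrl3 was low in both groups, from 6.34 to 8.78 against 5.62 to 12.8 CPM (log2 fold change -0.39, SE 0.27). The log2 CPM of Adgrl4 minus the mean of Adgrl1, Adgrl2 and Adgrl3 was -2.25 in the endocardial and -5.19 in the endothelial libraries, a difference of 2.94, in which the lengths of the genes cancel, in a contrast chosen after the values were seen. Its two-sided exact permutation p was 0.0286, the smallest that 4 against 4 libraries allow. Adgrl4 was already known to be apart and the other latrophilins to change little, so this p adds no support.

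Adgrf5 (chromosome 17, 43360451 to 43459557, plus strand, 21 exons) is a receptor of endothelium and of the lung epithelium that makes surfactant. It had 33.2, 36.6, 40.8 and 42.3 CPM in A, C, E and G and 13.8, 17.8, 12.5 and 23.9 CPM in B, D, F and H. The groups were apart, with G highest and F lowest. The mean was 38.2 ± 4.12 against 17.0 ± 5.12 CPM (SD, n = 4 each), 2.25-fold higher (log2 fold change 1.17, SE 0.20, edgeR adjusted p = 0.015). With 1 library left out it was called in 7 of 8 fits, and without E its edgeR adjusted p was 0.0639 at a log2 fold change of 1.13. The other members of subfamily F were at or near 0: Adgrf1 had 1 count in all 8 libraries together, Adgrf2 had 14, Adgrf3 had 5 and Adgrf4 had 6.

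Both genes moved in the direction of the pan-endothelial list, of which 14 of 18 were called higher and none lower (17 at an unadjusted p below 0.05, median log2 fold change 2.25). Each member's log2 CPM was therefore also taken relative to that list's mean log2 CPM in the same library. On this scale Adgrl4 was at -1.81 ± 0.285 in the endocardial and -2.48 ± 0.567 in the endothelial libraries (SD, n = 4), a difference of 0.66 (two-sided exact permutation p = 0.0286, the smallest possible). Since the list's own mean differed by 2.02, a gene with equal levels in both groups is lower on this scale by construction. Relative to Cdh5 alone, the endothelial cadherin, the difference was -0.33 (exact permutation p = 0.229), and relative to Pecam1 alone it was 1.84 (exact permutation p = 0.0286). The sign for Adgrl4 thus depended on the endothelial gene it was compared with.

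Adgrf5 differed by less than the list. Its relative level was -0.25 ± 0.207 against 0.57 ± 0.488 (SD, n = 4), a difference of -0.82 (exact permutation p = 0.0286). Relative to Cdh5 alone the difference was -1.82 (exact permutation p = 0.0286), but relative to Pecam1 alone it was 0.36 (exact permutation p = 0.286). The log2 CPM of Adgrf5 minus that of Adgrl4, a gap that also holds their difference in length, was 1.56 in the endocardial and 3.05 in the endothelial libraries. The change in the gap, in which length cancels, was -1.48 and had an exact permutation p of 0.0286 and was chosen after the values were seen.

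Adgrv1 (chromosome 13, 81095068 to 81633154, minus strand, 90 exons in a coding transcript of 19338 bases) codes for the very large receptor that forms the ankle links of hair cell stereocilia and is mutated in Usher syndrome. It had 9.94, 9.21, 13.0 and 5.74 CPM in A, C, E and G and 25.1, 51.3, 71.3 and 25.0 CPM in B, D, F and H. All endothelial values were above all endocardial values, and F and D stood above B and H. The mean was 9.48 ± 2.99 against 43.2 ± 22.5 CPM (SD, n = 4 each), a log2 fold change of -2.18 (SE 0.39, edgeR adjusted p = 0.0208). The call was lost without A (edgeR adjusted p = 0.0705), C (0.0775), D (0.0605), E (0.0523) or G (0.0678), with log2 fold changes from -2.38 to -1.84 over all 8 such fits.

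Over the endothelial libraries Adgrv1 was highest in F and next in D, and so was the sum of the neural markers. That sum was 265, 317, 412 and 216 CPM in B, D, F and H and 183, 228, 163 and 169 CPM in A, C, E and G. Over the endocardial libraries the orders differed: Adgrv1 was highest in E (13.0 CPM), where the neural sum was lowest (163 CPM). Of the 8 neural markers tested, 3 were called lower in the endocardial libraries (6 at an unadjusted p below 0.05), among them the neural plate factor gene Sox1, at 10.8, 15.6, 16.2 and 3.23 CPM in B, D, F and H. Not all neural markers went this way. Nes, which made up most of the endocardial sums, and Tubb3 had log2 fold changes of -0.061 and 0.086. The pluripotency markers had 2 of 10 called lower (9 at an unadjusted edgeR p below 0.05) and the epithelial markers 2 of 7 (5 at that p). Among the called epithelial markers was the epithelial cadherin Cdh1, at 82.7, 75.8, 223 and 101 CPM in B, D, F and H and 13.7 to 40.9 CPM in the endocardial libraries. Not all epithelial markers went this way: Krt8 and Krt18, keratins of simple epithelia, had log2 fold changes of 0.015 and 0.12. The epithelial list summed to 541 to 893 CPM in the endocardial and 681 to 1241 CPM in the endothelial libraries, which overlap, with H highest. Krt8 and Krt18 made up much of these sums, at 304 and 164 CPM in A and 678 and 382 CPM in H. Of the 7 epithelial markers 4 were lower without overlap (beside 5.33% of all tested genes): Cdh1, Epcam, Cldn7 and Esrp1, each highest in F. Without F, Adgrv1 kept its call (log2 fold change -1.84, edgeR adjusted p = 0.0247). The part of these markers' cells in the difference of Adgrv1 was not tested.

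**Figure D2:**
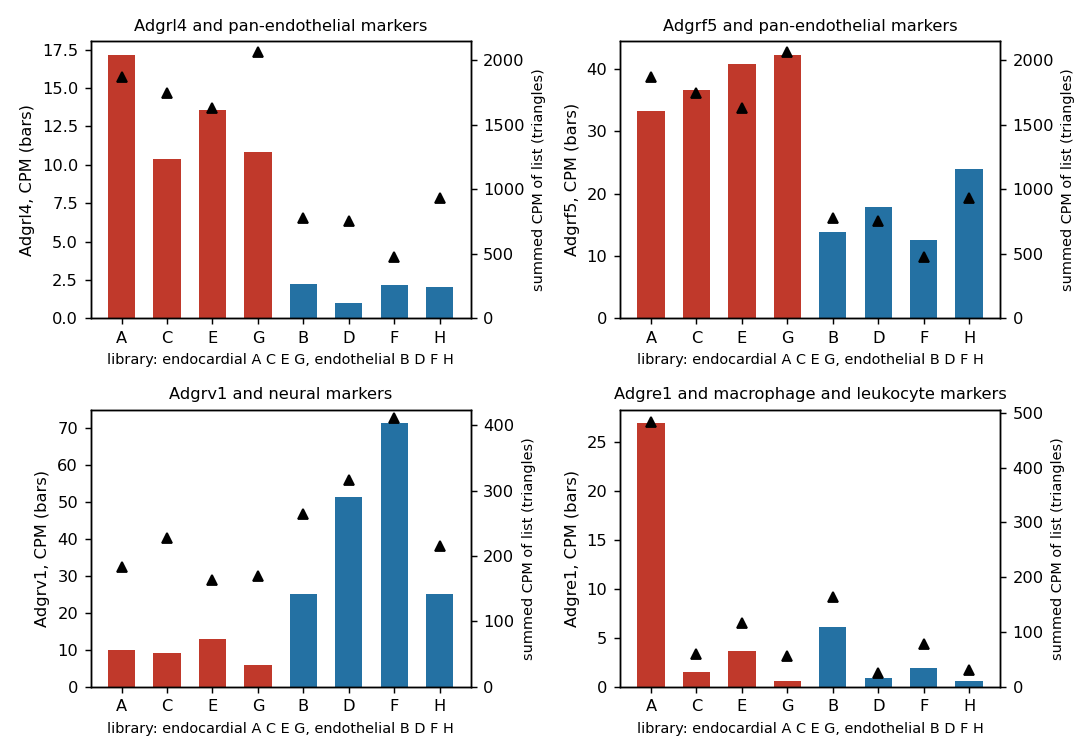
Bars give the CPM of 4 members in each library (red for endocardial A, C, E and G, blue for endothelial B, D, F and H), and triangles the summed CPM of the marker list named in each title, on the right axis. Adgrl4 and Adgrf5 are high in the same 4 libraries as the pan-endothelial list, Adgrv1 and the neural list are both highest in F, and Adgre1 and the macrophage and leukocyte list are both highest in A.

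The brain angiogenesis inhibitor genes of subfamily B, receptors of neurons and phagocytes, lay on the same side as Adgrv1. Adgrb2 had 6.46, 6.91, 10.2 and 4.74 CPM in A, C, E and G and 12.8, 13.9, 22.4 and 9.57 CPM in B, D, F and H. The groups overlapped, since E was above H (log2 fold change -1.05, SE 0.30, edgeR adjusted p = 0.112). It was not called by edgeR but was by DESeq2 (adjusted p = 0.0288) and limma voom (adjusted p = 0.0238), and its edgeR adjusted p over the other fits was between 0.00372, in the fit that blocks on neighbouring letters, and 0.267.

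Adgrb1 and Adgrb3 had too few counts for the test, and their CPM values nonetheless did not overlap between groups. Adgrb1, which recognises phosphatidylserine on dying cells, had 4, 7, 5 and 2 counts in A, C, E and G and 11, 33, 61 and 18 counts in B, D, F and H. Adgrb3 had 3, 7, 7 and 3 against 22, 13, 22 and 7 counts, which is 0.374 to 0.753 against 0.837 to 2.29 CPM. In a fit without a filter on low counts, Adgrb1 had a log2 fold change of -2.74 (SE 0.58, edgeR adjusted p = 0.0297) and Adgrb3 of -1.59 (SE 0.48, edgeR adjusted p = 0.14). Adgrb1 also passed the filter and was called when B was left out (-3.07, edgeR adjusted p = 0.0136) or A and B together (-3.08, edgeR adjusted p = 0.0394). It was called in no other fit with 1 library left out. Its endocardial counts were all below the filter's minimum count of 10, so it passed through its endothelial counts alone.

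**Figure D3:**
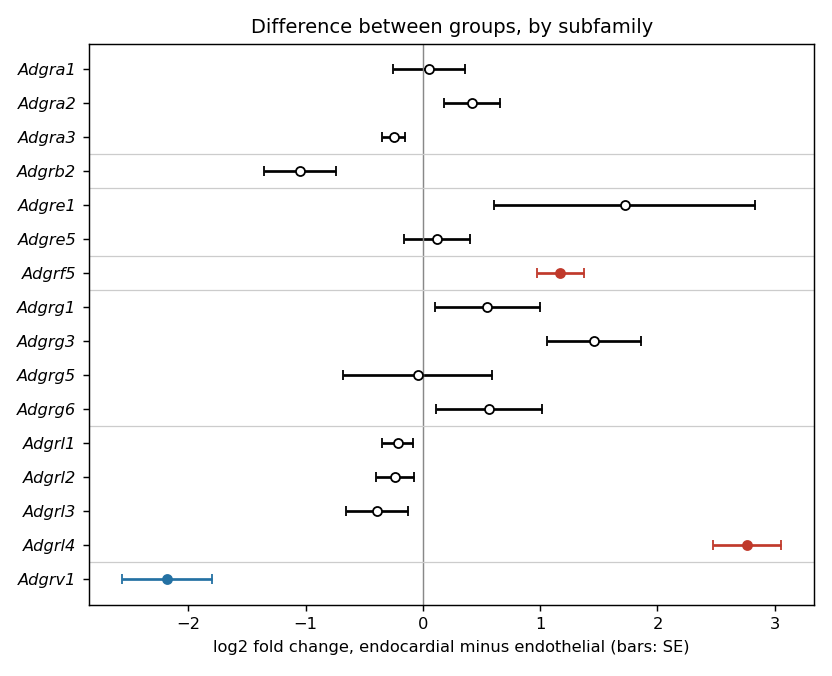
Log2 fold change (endocardial minus endothelial) of each tested member with its SE from edgeR, in order of subfamily, filled where the adjusted p is below 0.05 and open otherwise. Adgrl4 stands at 2.77 and Adgrf5 at 1.17 on the right, Adgrv1 at -2.18 on the left, and Adgrl1, Adgrl2 and Adgrl3 lie between -0.39 and -0.22.

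Subfamily A held the most abundant member in both groups, by CPM and per transcript length. Adgra2, the Wnt7 coreceptor of brain endothelium (chromosome 8, 27085583 to 27123436), had 523, 607, 454 and 638 CPM in A, C, E and G and 514, 442, 226 and 480.5 CPM in B, D, F and H. The groups overlapped and F was far below the rest (log2 fold change 0.42, SE 0.24, edgeR adjusted p = 0.485), and without F the log2 fold change was 0.20. Adgra3, a receptor related to Adgra2, had 102, 108, 96.1 and 109 CPM against 118, 126, 137 and 111 CPM. All 4 endocardial values were below all 4 endothelial values, yet the difference was small (log2 fold change -0.25, SE 0.10) and was not called (edgeR adjusted p = 0.272). Adgra1, a brain receptor, was low in both groups at 1.12 to 1.72 against 1.04 to 1.75 CPM, with 9 to 16 counts per library. No member of subfamily A was called by edgeR, DESeq2 or limma, with 1 of 3 at an unadjusted edgeR p below 0.05.

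Subfamily E holds leukocyte receptors, among them Adgre1, whose protein F4/80 marks macrophages. Adgre1 had 27.0, 1.47, 3.66 and 0.624 CPM in A, C, E and G and 6.15, 0.876, 1.88 and 0.598 CPM in B, D, F and H. Library A alone set the endocardial mean of 8.18 ± 12.6 CPM (SD, n = 4), and the log2 fold change was 1.72 with all libraries (SE 1.11, edgeR adjusted p = 0.561) and -0.36 without A. It was 0.76 with A and B both left out (edgeR adjusted p = 0.671) and 1.37 in the fit that blocks on neighbouring letters (edgeR adjusted p = 0.0544). By CPM, A was above B, C above D, E above F and G just above H. However, G and H had 5 counts each, and no label pairs the libraries. Adgre4, a related myeloid gene, had 35 counts in A, 15 in B and 0 to 5 in the other 6 libraries. The summed macrophage and leukocyte markers were likewise highest in A and then B. Csf1r, the receptor that macrophages need, had 118 CPM in A, 38.1 in B and 2.34 to 20.5 in the others. Not all of these markers had B second: after A, Spi1, Tyrobp, Lyz2 and C1qa were highest in E, Mrc1 in G and Cd68 in F. Adgre5, known as CD97 and present on many cells besides leukocytes, had 34.2, 24.3, 18.1 and 19.8 CPM against 25.7, 12.7, 30.6 and 19.1 CPM, with overlapping groups (log2 fold change 0.12, SE 0.28). Of the 10 macrophage and leukocyte markers tested, 0 were called by edgeR, DESeq2 or limma (1 at an unadjusted edgeR p below 0.05), while all 10 log2 fold changes were above 0 (median 1.27). Their part in the values of Adgre1 was not tested.

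In subfamily G, library A was again the highest of all 8 for each of the 4 tested genes. Adgrg3, a receptor of granulocytes also known from lymphatic endothelium (chromosome 8, 95017692 to 95045250), had 9.30, 5.02, 4.41 and 2.62 CPM in A, C, E and G and 2.59, 1.61, 1.56 and 1.91 CPM in B, D, F and H. The groups were apart by a small margin, G lying just above B. The log2 fold change was 1.46 (SE 0.40, edgeR adjusted p = 0.0941). DESeq2 (adjusted p = 0.0246), limma voom (adjusted p = 0.0313) and the fit with neighbouring letters as a block (edgeR adjusted p = 0.0239) called it, and over all alternatives the adjusted p reached 0.225, with a log2 fold change of 1.04 without A.

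Adgrg1, also called GPR56 and known from neural progenitors and blood stem cells, had 121, 54.2, 47.4 and 38.5 CPM in A, C, E and G and 59.0, 37.4, 64.0 and 17.0 CPM in B, D, F and H. Its groups overlapped (log2 fold change 0.55, SE 0.45, edgeR adjusted p = 0.66), and without A the log2 fold change was 0.055. Adgrg6, or GPR126, a receptor needed for Schwann cell myelination and for heart development in mice, had 18.7, 12.1, 11.2 and 4.49 CPM against 10.7, 5.26, 11.5 and 3.83 CPM. This too overlapped, at a log2 fold change of 0.56 (SE 0.45, edgeR adjusted p = 0.655). Adgrg5 had 8.65 CPM in A and 1.37 to 1.67 in the other endocardial libraries, against 2.03 to 5.63 CPM (log2 fold change -0.046, and -1.18 without A). The part of the macrophage markers' cells in the values of A was not tested. Of the others, Adgrg2 had 1 to 8 counts per library, Adgrg4 had 0 to 3, Adgrg7 had 2 counts in all, and the subfamily D gene Adgrd1 had 1 to 9.

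To order the members by level, CPM was divided by the length of the longest coding transcript of each gene in kb. On this scale Adgra2 was highest in both groups, at 96.4 ± 14.5 in the endocardial and 72.1 ± 22.5 CPM per kb in the endothelial libraries (SD, n = 4), which is 44.8% and 37.5% of the sum of the 27 means. Adgrl2, Adgrl1 and Adgra3 followed at 26.2 ± 5.11, 24.1 ± 3.22 and 23.1 ± 1.33 in the endocardial libraries and were not apart from each other beyond their spread. The same 3 followed in the endothelial libraries at 30.9 ± 5.16, 28.0 ± 3.38 and 27.5 ± 2.46. Then came Adgrg1 at 18.0 ± 10.4 and Adgre5 at 8.03 ± 2.41 CPM per kb in the endocardial libraries, whose spreads do not separate Adgrg1 from the 3 above it.

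The called members were of middling or low level on this scale. Adgrf5 was at 4.48 ± 0.483 and Adgrl4 at 3.16 ± 0.761 CPM per kb in the endocardial libraries, ranks 7 and 8 of 27, against 1.99 ± 0.600 and 0.455 ± 0.139 in the endothelial libraries, ranks 9 and 16. Adgrv1, whose long transcript takes up many reads, was at 0.490 ± 0.154 and 2.23 ± 1.16 CPM per kb, rank 15 in the endocardial and 8 in the endothelial libraries. With the union of all exons as the length, Adgra2 was still first in both groups, and Adgrl2 moved from rank 2 to 5 in the endocardial and to 4 in the endothelial libraries.

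**Figure D4:**
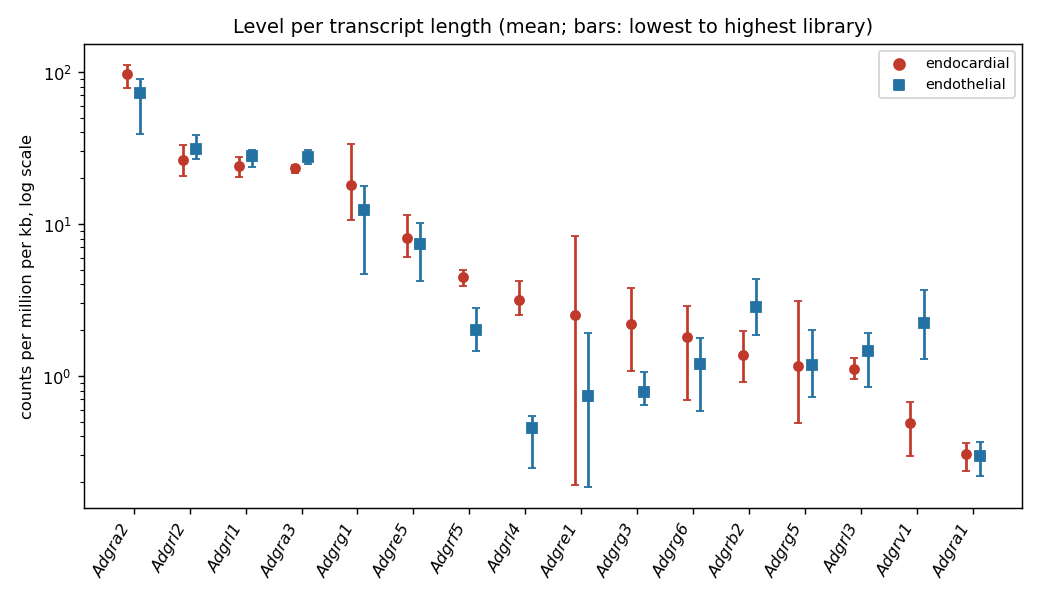
Mean CPM per kb of the longest coding transcript (log scale) of the 16 tested members, ordered by the endocardial mean, with circles for endocardial, squares for endothelial and bars from the lowest to the highest library. Adgra2 is first at 96.4 and 72.1 CPM per kb, and Adgrl4 drops from 3.16 in the endocardial to 0.455 in the endothelial libraries.

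Flamingo receptors, the Celsr genes of subfamily C, act in planar cell polarity and lay on the side of Adgrv1 and subfamily B. Of these 3 genes 2 were called lower and 0 higher by edgeR, beside 1.16% and 1.42% of all tested genes. Celsr1 had 23.9, 24.3, 17.3 and 23.3 CPM in A, C, E and G and 45.1, 70.1, 76.4 and 37.1 CPM in B, D, F and H (log2 fold change -1.36, SE 0.23, edgeR adjusted p = 0.0162). Its endothelial values were all above its endocardial ones. The neural, epithelial and pluripotency markers, with medians of -1.97, -2.12 and -3.26 on the log2 fold change scale, lay on the same side, and the part of their cells in the Celsr values was not tested. Celsr2 had 15.2 to 23.8 against 32.3 to 96.2 CPM (log2 fold change -1.57, SE 0.33, edgeR adjusted p = 0.0408), and Celsr3, named after its value was seen, had 2.26 to 5.13 against 7.74 to 13.6 CPM (-1.27, edgeR adjusted p = 0.0596). With 1 library left out, Celsr1 was called in 4 of 8 fits (not without C, D, E or G) and Celsr2 in 2 (those without B and without H), and the edgeR adjusted p reached 0.0677 without E for Celsr1 and 0.124 without G for Celsr2.

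Ligands of the receptors were mostly not called. Of 5 tested latrophilin partners, the teneurins and FLRT proteins, edgeR called 0, with 4 at an unadjusted p below 0.05, and DESeq2 and limma each called 4 lower. These included Tenm3 at 149 ± 29.4 against 231 ± 14.5 CPM and Tenm4 at 126 ± 32.2 against 205 ± 33.9 CPM (SD, n = 4 each), both named after their values were seen. Of 14 matrix ligands and surface partners, 1 was called higher: Tgm2, a transglutaminase that binds the extracellular part of Adgrg1, had 35.0, 41.7, 55.3 and 32.2 CPM against 16.6, 16.8, 24.1 and 10.3 CPM (log2 fold change 1.27, SE 0.25, edgeR adjusted p = 0.031). At an unadjusted edgeR p below 0.05 there were 3 of the 14, and DESeq2 called 1 higher and limma 3. The Tgm2 groups were apart, but with 1 library left out the call held only without F and without H, in 2 of 8 fits, and the edgeR adjusted p reached 0.102 without D. None of the 5 tested genes of the Adgra2 Wnt7 complex was called by edgeR (1 at an unadjusted p below 0.05, and 1 lower by DESeq2 and 0 by limma).

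G proteins and intracellular partners were all expressed highly enough to test. Of 15, edgeR called 1 lower, Gnao1, the alpha subunit of the neuronal G protein Go, at 26.7 to 32.6 against 38.9 to 42.0 CPM (log2 fold change -0.46, SE 0.10, edgeR adjusted p = 0.0478). Gnao1 was called in none of 8 fits with 1 library left out (edgeR adjusted p 0.062 to 0.133). DESeq2 called 3 of this list higher and 1 lower, and limma 2 and 1. At an unadjusted edgeR p below 0.05 there were 5 of the 15, and 12 of the 15 log2 fold changes were above 0. Besides Gnao1 the 5 were Elmo1, Gna13, Arrb1 and Gna12, all higher (log2 fold changes of 0.76, 0.30, 0.57 and 0.38). Of the Adgrv1 ankle-link complex, 2 of 3 genes were tested and 0 were called by edgeR, DESeq2 or limma (1 at an unadjusted edgeR p below 0.05).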

How the data were processed

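Libraries were made with a stranded mRNA kit, per the labels' protocols. The deposited table holds an estimated count for each gene symbol and library; Salmon, DESeq2 and build mm10 are named per the submitters' processing notes. No version, transcript set or filter is stated in these sources. All deposited values were whole numbers. Salmon divides reads between similar transcripts by a model.

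Genes passed edgeR's filterByExpr at a minimum count of 10 and a minimum total of 15. TMM scaling and the robust quasi-likelihood F-test (edgeR 4.0.16, R 4.3.3) used all 8 libraries, after a test on simulated data. The SE was taken as the size of the log2 fold change over the square root of its F. CPM uses TMM-scaled totals, and log2 CPM a prior count of 2. Alternatives were DESeq2 1.42.0, limma 3.58.1 voom, other scalings and filters, no robust estimation, a block of neighbouring letters and left-out libraries. Lengths and coordinates came from GENCODE M21 (GRCm38, the assembly of mm10), which held 27 of 27 members. Upstream sequences are RefSeq's, and 20 of 27 members matched.

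Every library's value is given for called members and the 6 uncalled with the smallest p. Partner lists give up to 4 called genes. The members and lists were chosen with earlier results of these data known. Exact p-values of members relative to the endothelial list are unadjusted.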

Additional observations from a re-analysis of the deposited data

Results flagged for a closer look

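Each group of 4 libraries was examined for a library far from the other 3, for the 21 members with at least 15 counts in all. By Dixon's test at its 95% critical value, 5 of 42 groups held such a library, and chance alone gives about 1 in 20. Library A was far above the other endocardial libraries for Adgre1 (27.0 CPM, the next being 3.66), Adgre4 (4.52 CPM, the next 0.538) and Adgrg5 (8.65 CPM, the next 1.67). Library B was far above the other endothelial libraries for Adgre4 (1.34 CPM, the next 0.209). Library D was below the others for Adgrl4 (1.02 CPM, the next 2.03), a value that rests on 7 counts.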

How the results depend on the processing

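Of 272 pairs of a tested member and an alternative fit, 248 kept the direction and the side of the threshold, and 12 of the 16 members kept their sign in all 17 alternatives. The sign turned for 4 members that were not called. Adgra1 was -0.057 with limma voom and -0.088 to 0.17 with 1 library left out, Adgre1 -0.36 to 2.83, Adgre5 -0.11 to 0.30 (and -0.014 with A and B both left out, an alternative chosen after seeing the data) and Adgrg5 -1.18 to 0.32. With 1 library left out, 1 to 2 members were called higher, 0 to 2 lower, and 135 to 457 of all genes, beside 356 with all libraries. Members called lower numbered 2 with DESeq2, limma voom, no filter, neighbouring letters as a block, or A and B left out. Genes called in all numbered 860 with DESeq2, 975 with limma voom, 1204 with that block and 227 without A and B. No label pairs the libraries, so the block rests on the letters alone, and no fit could be paired by a labelled replicate number. Relative to Cdh5 alone 0 members were higher at an exact p of 0.0286, against 1 relative to the list, and relative to Pecam1 alone 6 were lower, against 11, counts that move with the reference's own difference. The causes were not tested. The 11 untested members had too few counts for the filter.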

Other observations

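Adgrg5, Adgrg1 and Adgrg3 lie next to each other on chromosome 8 on the plus strand (94923694 to 94943280, 94974751 to 95014217 and 95017692 to 95045250, GRCm38). Library A was the highest of the 8 for each of these 3 genes, at 8.65, 121 and 9.30 CPM, yet their log2 fold changes without A were -1.18, 0.055 and 1.04. Whether these 3 fold changes differ from each other was not tested.

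Counted per kb of the longest coding transcript, 14 members in the endocardial and 12 in the endothelial libraries had a mean of at least 1 CPM per kb, or 11 and 10 with the union of exons as the length. The 4 with the highest means by the first measure in both groups, Adgra2, Adgrl2, Adgrl1 and Adgra3, were all among those not called.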
